A study of Mus musculus with 8 samples.

Results

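The autophagy and mitophagy genes described here are 39 genes that encode the core machinery of autophagosome formation, its cargo receptors and the receptors that tag mitochondria for removal, together with Tfeb, a transcription factor of lysosomal and autophagy genes. They were chosen by name, as a list of gene symbols grouped by stage of autophagy, and no rule on their measured values was applied. Earlier results of these data were known when they were chosen. A probe was found for 37 of the 39, among 18217 genes named on the array, whereas no probe was matched here to Atg9a, a membrane protein of the vesicles that seed the autophagosome, or to Gabarapl2, an Atg8-family protein. All 37 were bright enough to be tested, and the probe that represented each of them was well above background on all 8 arrays.

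The mice were 9-week-old males of the strain C57BL/6J, kept on a standard dry pellet diet, and transcripts were measured in their hearts. C57BL/6J is a common inbred laboratory strain. One group, with 4 hearts, was satiated and untreated, and the other, also with 4 hearts, was deprived of food for 2 days with water freely available. Total RNA of each heart was labelled with Cy3 and hybridised to 1 one-colour Agilent mouse array, and the question is which cardiac transcripts change with fasting. The arrays lay on 2 slides, with replicates 1 and 2 of both groups on slide 1 and replicates 3 and 4 on slide 2. The labels number the hearts of a group without stating that each came from its own animal, so p-values cover no more than the spread among these hearts, which may be technical, and the number of arrays limits the precision.

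Macroautophagy encloses cytoplasm in a double membrane and delivers it to the lysosome. A kinase complex around Ulk1 starts the process, a class III PI3-kinase complex around Becn1 marks the site with phosphoinositide, and an enzyme cascade then couples Atg8 proteins such as LC3 and GABARAP to the lipid phosphatidylethanolamine of the growing membrane. Cargo receptors bind both ubiquitin-tagged or otherwise marked cargo and lipid-bound Atg8 proteins, and mitophagy receptors do the same from the surface of mitochondria. In the heart, the process renews long-lived mitochondria and proteins and supplies amino acids and fatty acids during fasting.

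In fasted hearts 10 of the 37 measured members rose and 1 fell. All 4 cargo receptors on the list (Sqstm1, Optn, Calcoco1 and Nbr1, of which Nbr1 and Optn lost their calls under several alternatives given below), 2 of 4 measured Atg8 genes (Gabarapl1 and Map1lc3b), the mitophagy receptor Bnip3, 2 of 6 PI3-kinase complex genes (Uvrag and Pik3c3) and 1 of 4 initiation genes (Atg13) rose. The mitophagy receptor Fundc1 fell. Of 19 alternatives, Atg13 lost its call in 12, Pik3c3 in 11 and Fundc1 in 6, against 15 for Nbr1 and 9 for Optn. None of the 10 conjugation genes and none of the 4 measured membrane-supply genes passed the test, nor did Tfeb. The test was limma's moderated test on log2 signals with Benjamini-Hochberg adjustment over all 20203 genes and unnamed probes tested, at an adjusted p under 0.05.

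Counted over the 37 measured members, 10 rose (27.0%), 1 fell (2.70%) and 26 did not pass. Of all features tested, 9.82% rose and 10.3% fell, 20.2% in all. The median log2 fold change of the members, fasted minus satiated, was 0.20, against -0.0042 for all features tested, and 26 members had a value above 0 and 11 below. The 4 satiated and 4 fasted hearts did not overlap in signal for 14 members (37.8%), against 27.6% of all features tested. Changes of at least 2-fold that passed the test numbered 6 among the members, all higher, and such increases made up 3.7% of all features. Leaving out fasted replicate 4 or satiated replicate 1, 2 or 4 lowered the number of members that rose from 10 to 6, and 6 of the 11 members past the threshold (Bnip3, Gabarapl1, Sqstm1, Uvrag, Map1lc3b and Calcoco1) passed it without any 1 heart. In whole-heart RNA, more transcript per cell and more cells of a type that carries the transcript cannot be told apart.

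The 2 slides differed in background: negative control spots had a median signal between 28.5 and 30.0 on each array of slide 1 but between 136 and 150.0 on each of slide 2. With the slide as a block in the fit, 16 members rose and 3 fell, against 17.1% and 18.4% of all features tested, and a replicate block gave 16 and 3 again, against 15.4% and 16.7%. The same 19 members were called, that is past the threshold, with either block, and they included all 11 called without one. The 8 added were Ulk1, Wipi2, Atg2a, Atg4b, Bnip3l and Pink1 among those that rose and Ulk2 and Atg4d among those that fell. The median standard error of the members was 0.19 without the block and 0.097 with the slide as a block. On slide 1 alone the median change of the members was 0.088, on slide 2 it was 0.33, and 29 of 37 members had the same sign on both slides, against 81.1% of all features tested.

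**Figure D1:**
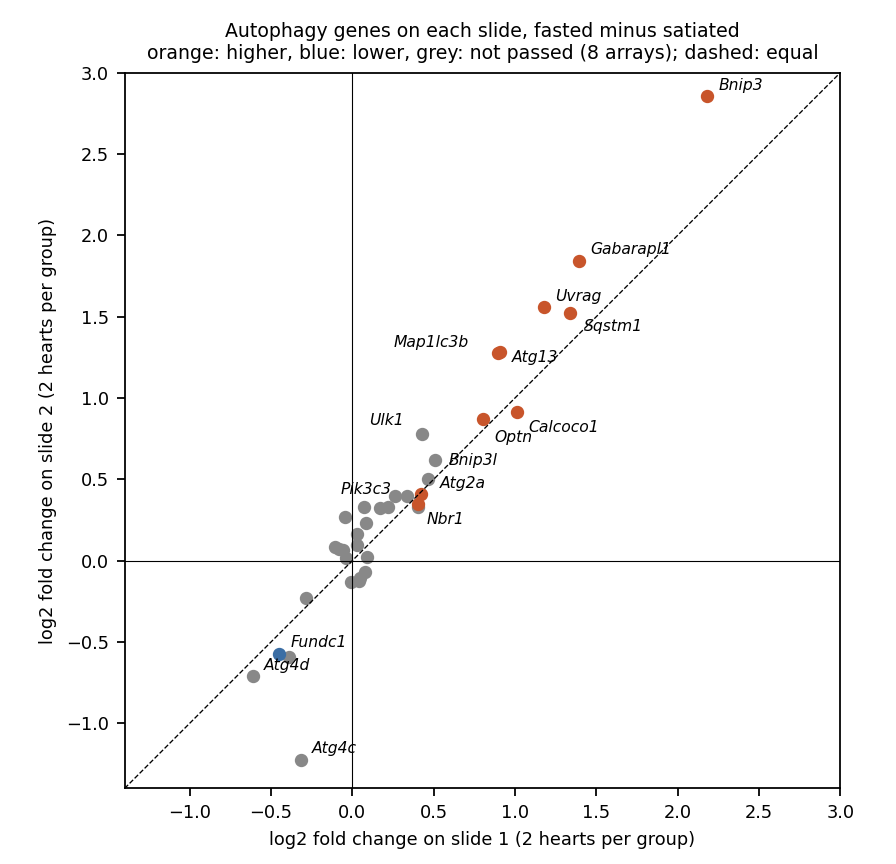
Log2 fold change of each of the 37 measured members, fasted minus satiated, on slide 1 (horizontal axis) and on slide 2 (vertical axis), each from 2 hearts per group. Orange points rose, blue fell and grey did not pass over 8 arrays. All 11 called members lie on the same side of 0 on both slides, which follows from their groups not overlapping. Bnip3 lies farthest out at 2.18 and 2.85.

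The markers of heart muscle were present: all 8 cardiomyocyte markers were measured, and Myh6, the main myosin heavy chain of the adult mouse heart, had a relative signal of 329.7 to 592, where 1 is the 75th percentile of an array's probes. Of 50 measured markers of 8 cell types, 9 passed the test, where 20.2% of all features tested passed. Among 8 cardiomyocyte markers Actc1 fell by 1.64 on the log2 scale, and the summed relative signal of the list was 2193 to 2959 in satiated and 2003 to 2876 in fasted hearts. Of 7 fibroblast markers, Col1a1, Col1a2, Col3a1, Postn and Tcf21 fell by 1.68, 0.98, 2.56, 1.12 and 0.63, Dcn rose by 0.56, and the summed signal was 233 to 273 in satiated and 234 to 286 in fasted hearts. Dcn made up most of that sum, at 141 to 158 in satiated and 201 to 260 in fasted hearts. Acta2, of the smooth muscle list, fell by 0.50, Cd14, of the leukocyte list, rose by 0.80, and no endothelial, adipocyte, erythroid or skeletal muscle marker passed (1, 2, 0 and 0 at an unadjusted p under 0.05 in limma's test). Cd14 lost its call in 7 of the 8 fits without 1 heart (adjusted p = 0.0606 to 0.120), and Acta2 (0.0658 to 0.0810) and Col1a2 (0.0657 to 0.0813) in 6 of 8. With the slide as a block the endothelial markers Pecam1 (0.60, limma adjusted p = 0.00767) and Vwf (0.40, limma adjusted p = 0.0328) rose and Kdr (-0.46, limma adjusted p = 0.0441) fell, and the replicate block kept Pecam1 and Vwf (adjusted p = 0.0206 and 0.0422). Both blocks also called Pln lower (-0.42, limma adjusted p = 0.0157 with the slide block). They called Pdgfra (0.37, 0.0298) and Rgs5 (0.39, 0.0398) higher. The replicate block alone called Adgre1 lower (-0.56, limma adjusted p = 0.0386). Satiated replicate 1 stood apart in skeletal muscle genes: Actn3 was at 12.0 there and at 0.049 to 0.103 in the other 7 hearts, and Tnnt3 at 11.4 against 0.049 to 0.173. Without it, the skeletal muscle markers Tnnt3 and Tnni2 were called higher in fasted hearts, at 1.21 (limma adjusted p = 0.0118) and 1.34 (limma adjusted p = 0.0111), and the adipocyte marker Plin1 lower, at -2.06 (limma adjusted p = 0.0246). No other measured marker of either list was called without it. Myh2 was at -0.71 or lower and Actn3 at -0.011 or lower in every fit without 1 heart. The adipocyte marker Cidec was at 0.66 to 1.38 in those fits. Without satiated replicate 1, 6 members rose and none fell, with Atg13, Pik3c3, Nbr1, Optn and Fundc1 no longer past the threshold. The part of these markers in the results below was not tested.

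**Figure D2:**
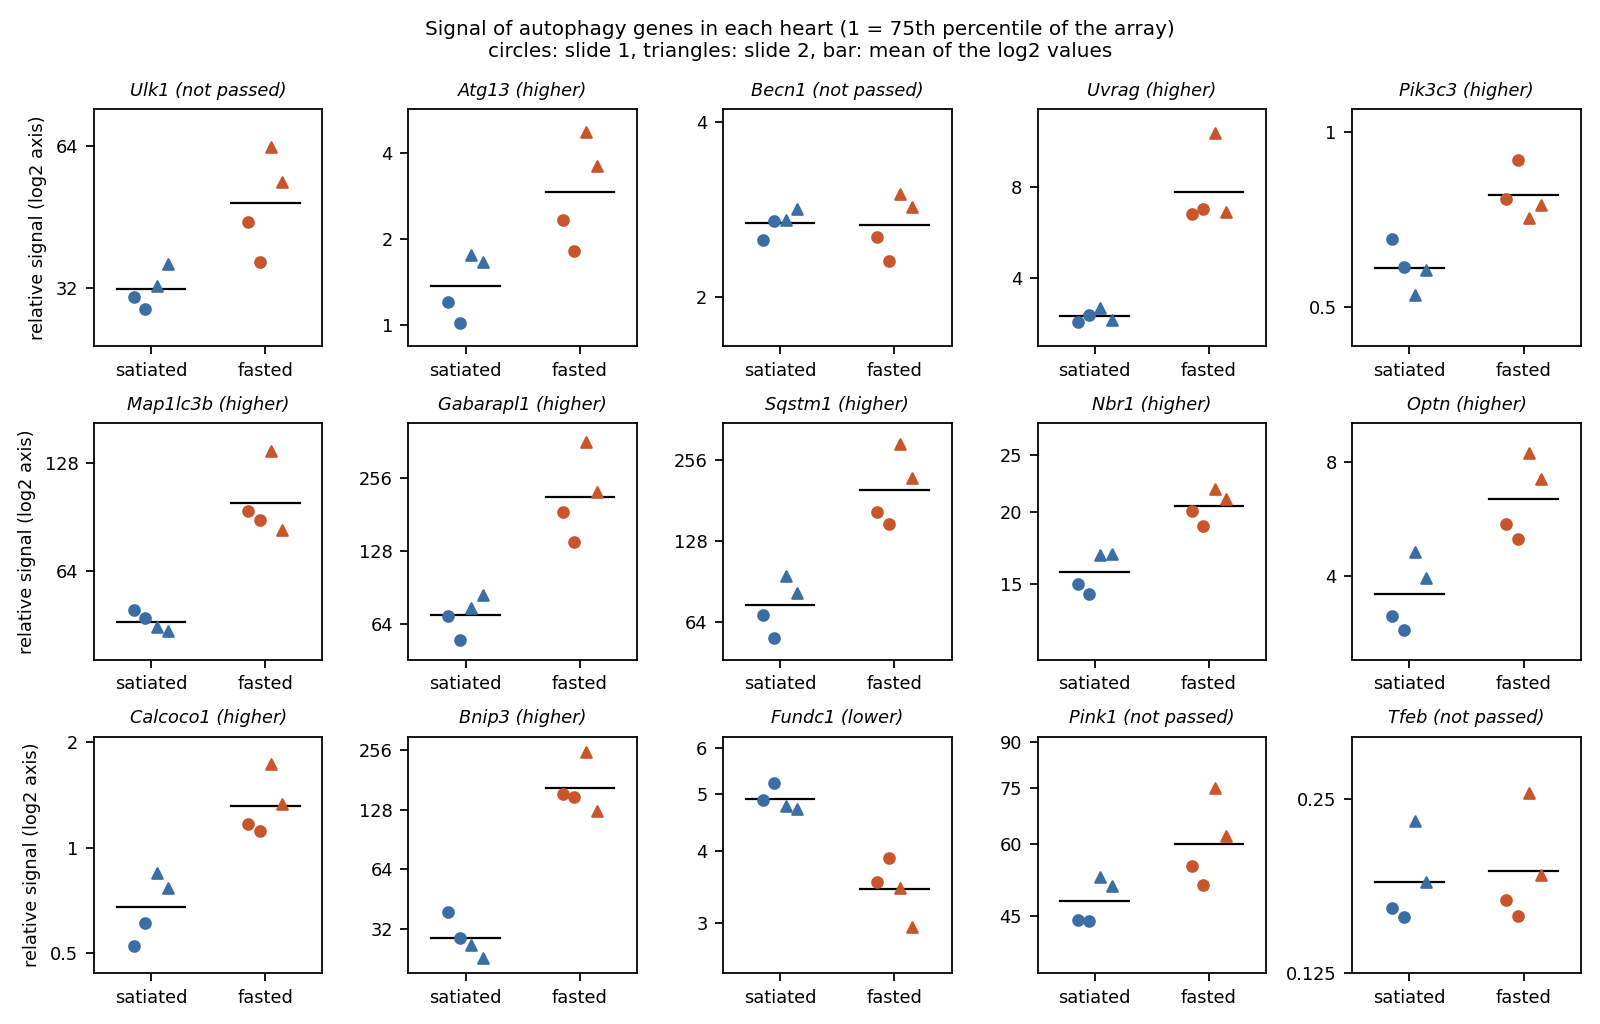
Relative signal of 15 members in each heart, on a log2 axis where 1 is the 75th percentile of the array, with circles for slide 1, triangles for slide 2 and a bar at the mean of the log2 values. Fasted hearts sit above satiated hearts without overlap in the 10 panels marked higher, below them for Fundc1, and among them for Becn1 and Tfeb. For Pink1 they are higher within each slide and overlap across slides, and for Ulk1 they are apart, and neither passed.

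Promoter sequence is shown for the 5 members with the largest changes past the threshold, because they are the members that moved most. RefSeq's table for GRCm38.p6 held promoters for 32 of the 39 members, each a window of 300 bases, 250 before the transcript start to 50 after it. The lines give the 120 bases just before the start, read 5′ to 3′ on the gene's strand, and capitals mark CACGTG, the E-box core found in binding sites of TFEB.
Bnip3, chr7:138909507-138909626, minus strand: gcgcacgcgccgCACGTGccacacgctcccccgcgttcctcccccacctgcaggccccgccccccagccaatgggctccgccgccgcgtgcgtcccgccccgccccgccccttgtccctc
Gabarapl1, chr6:129533072-129533191, plus strand: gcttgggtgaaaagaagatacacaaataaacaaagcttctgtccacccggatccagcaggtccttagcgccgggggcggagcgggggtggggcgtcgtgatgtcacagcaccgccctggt
Sqstm1, chr11:50210821-50210940, minus strand: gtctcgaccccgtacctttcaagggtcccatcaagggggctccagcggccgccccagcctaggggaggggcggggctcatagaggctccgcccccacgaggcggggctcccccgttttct
Uvrag, chr7:99141145-99141264, minus strand: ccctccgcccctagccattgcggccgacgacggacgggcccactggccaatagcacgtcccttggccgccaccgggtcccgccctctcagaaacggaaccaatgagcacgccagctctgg
Map1lc3b, chr8:121590318-121590437, plus strand: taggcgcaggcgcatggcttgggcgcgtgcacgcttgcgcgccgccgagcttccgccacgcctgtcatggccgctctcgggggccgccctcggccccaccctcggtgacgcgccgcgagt

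CACGTG occurred in the window of Bnip3, with its first base 108 bases before the start, and in none of the other 8 members that rose and had a promoter in the table. Among the 21 other measured members with a promoter it occurred in 4 (Atg7, Atg5, Atg14 and Atg3), and 7.15% of all 32851 promoters held it. TGTTTAC, a form of the FoxO site, occurred in no member's window, against 3.65% of all promoters. Only this exact sequence was searched, so other forms of a FoxO site are not covered. ACGTG, a form of the core of the hypoxia response element, overlaps CACGTG. It was in 3 of the 9 that rose (Bnip3, Uvrag and Nbr1) and in 9 of the 21 others, against 19.6% of all promoters. Other forms of that core were not searched. AGAACA, a motif of glucocorticoid receptor sites, was in 1 of the 9 (Optn) and 4 of the 21, against 19.0%. Both strands were searched, Nbr1 has 2 promoters in the table, and a match is a description of the letters only.

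The initiation complex consists of the kinase Ulk1 or its relative Ulk2, the scaffold Rb1cc1 (FIP200) and the adaptor Atg13. Atg13 had relative signals of 1.21, 1.01, 1.76 and 1.66 in satiated replicates 1 to 4 and 2.34, 1.81, 4.76 and 3.61 in fasted replicates 1 to 4. The lowest fasted heart lay just above the highest satiated one, and both slide 2 hearts of each group were above the slide 1 hearts of that group. Its log2 fold change was 1.09 ± 0.32 (SE, n = 4 per group; 2.12-fold; limma adjusted p = 0.0477). The call rested on the full set of arrays: it was kept without fasted replicate 2 and lost without any of the other 7 hearts (adjusted p = 0.0623 to 0.120), and it was also lost with each array centred on its median (adjusted p = 0.0769), with the deposited value table (0.0775) and with all probes kept (0.109).

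Ulk1, the kinase that starts the process, was at 30.6, 28.9, 32.3 and 35.9 in satiated hearts and at 44.1, 36.4, 63.6 and 53.7 in fasted hearts. No fasted heart was as low as any satiated heart, but fasted replicate 2 came close to satiated replicate 4. The difference of 0.60 ± 0.18 (1.52-fold, 95% interval 0.18 to 1.03) missed the threshold in limma's test (adjusted p = 0.0515) and passed it with the slide as a block (adjusted p = 0.00869) or the replicate block (adjusted p = 0.0248). It also passed without a block under normexp background correction (adjusted p = 0.0256), quantile normalization (0.0468), a filter that kept probes well above background on all 8 arrays (0.0358), the mean of its probes (0.0324) and without fasted replicate 2 (0.0229). Ulk2 was 1.31 to 1.71 in satiated and 0.734 to 1.25 in fasted hearts, again without overlap, a log2 difference of -0.49 ± 0.19 that did not pass (limma adjusted p = 0.106) and that passed with the slide block (adjusted p = 0.0279), the replicate block (adjusted p = 0.0498) and normexp without a block (adjusted p = 0.0319). The dimmer of its 2 probes differed the other way, by 0.28 ± 0.15.

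Rb1cc1 showed how far the probe matters. Its brightest probe, which represented the gene, was at 4.43 to 4.99 in satiated and 4.30 to 5.03 in fasted hearts, a log2 difference of -0.011 ± 0.11 (limma adjusted p = 0.960). Its 5 other probes all had higher means in fasted hearts, by 0.45 to 0.95, and 3 of them passed when every kept probe was tested on its own, a test in which 21.1% of all 26480 probes passed. With the mean of its 6 probes in place of the brightest, the difference was 0.49 and passed (limma adjusted p = 0.0287).

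The class III PI3-kinase complex holds the lipid kinase Pik3c3 (VPS34), its regulatory subunit Pik3r4 (VPS15), the scaffold Becn1, and either Atg14, which directs it to the forming autophagosome, or Uvrag, which directs it to endosomes and to fusion with the lysosome. Uvrag was at 2.86, 3.01, 3.18 and 2.90 in satiated hearts and at 6.51, 6.78, 12.0 and 6.63 in fasted hearts. The satiated hearts were close together, and fasted replicate 3 stood above the other 3 fasted hearts, which themselves were close together. The log2 fold change of Uvrag was 1.37 ± 0.21 (2.58-fold, limma adjusted p = 0.00379), and leaving out any 1 heart, fasted replicate 3 included, kept it past the threshold at 1.15 to 1.45.

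Pik3c3 was at 0.654, 0.586, 0.523 and 0.579 in satiated hearts and at 0.766, 0.894, 0.712 and 0.749 in fasted hearts. All fasted hearts were above all satiated hearts, by a small margin. Its change of 0.41 ± 0.12 (1.33-fold, limma adjusted p = 0.0487) was kept without fasted replicate 3 and lost without any of the other 7 hearts (adjusted p = 0.0592 to 0.123), and it was lost with normexp background correction (adjusted p = 0.152) and with all probes kept (0.146). Becn1 was at 2.50, 2.70, 2.71 and 2.83 in satiated and at 2.53, 2.30, 3.01 and 2.85 in fasted hearts. The groups overlapped almost fully, and the difference of -0.013 ± 0.12 had a 95% interval of -0.29 to 0.27 (limma adjusted p = 0.958).

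Pik3r4, with a log2 difference of -0.071 ± 0.15, Atg14, with 0.11 ± 0.13, and Ambra1, a regulator that binds Becn1, with 0.16 ± 0.33, did not pass either. Ambra1 was spread by slide more than by group: satiated hearts were at 2.33 and 2.69 on slide 1 and 1.27 and 1.28 on slide 2, and fasted hearts at 2.63 and 2.67 on slide 1 and 1.33 and 1.69 on slide 2.

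None of the 4 membrane-supply genes passed, and 1 (Wipi2) had an unadjusted p under 0.05 in limma's test. Wipi1 and Wipi2 read the phosphoinositide made by the PI3-kinase complex, and Atg2a and Atg2b transfer lipid into the growing membrane. Wipi2 was 1.12 to 1.46 in satiated and 1.57 to 1.79 in fasted hearts, without overlap, with a log2 difference of 0.37 ± 0.12 that missed the threshold (limma adjusted p = 0.0705) and passed with the slide block (adjusted p = 0.0116), the replicate block (adjusted p = 0.0291) and normexp without a block (adjusted p = 0.0252). Over both slides Atg2a overlapped between groups, at 0.732 to 1.35 in satiated and 1.10 to 2.03 in fasted hearts. Within each slide its fasted hearts were above its satiated hearts, by 0.47 on slide 1 and 0.50 on slide 2, and its difference of 0.48 passed only with the slide block (limma adjusted p = 0.00730) or the replicate block (adjusted p = 0.0167). Wipi1 and Atg2b differed by -0.043 ± 0.11 and -0.030 ± 0.24.

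The conjugation genes prime, activate and couple Atg8 proteins: Atg4a to Atg4d are the proteases that trim and release them, Atg7 is the E1-like enzyme, Atg3 and Atg10 are E2-like enzymes, and Atg12, Atg5 and Atg16l1 form the complex that directs lipid coupling. None of the 10 passed in limma's test, 1 of them (Atg4d) had an unadjusted p under 0.05, and the groups overlapped for all 10. The median log2 difference was 0.030, and the single values ran from -0.77 to 0.37. The signals of Atg5, whose product is coupled to Atg12, were 1.28 to 1.48 in satiated and 1.26 to 1.47 in fasted hearts, a difference of -0.0053 ± 0.11 with a 95% interval of -0.25 to 0.24. Differences of Atg3, Atg16l1, Atg7 and Atg10 were 0.056 ± 0.11, 0.096 ± 0.11, 0.20 ± 0.24 and -0.26 ± 0.14.

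The 4 proteases did not move as a group. Atg4c had the lowest value of all members, -0.77 ± 0.51, and its spread was set by fasted replicate 3, at 0.096 against 0.380 to 0.516 in the other fasted hearts and 0.440 to 0.659 in satiated hearts. Atg4d, at 1.11 to 2.15 in satiated and 0.735 to 1.39 in fasted hearts, differed by -0.66 ± 0.27 (limma adjusted p = 0.127) and passed with the slide block (adjusted p = 0.00666) and the replicate block (adjusted p = 0.0196). A dimmer probe of Atg4d differed by only -0.11 ± 0.13. Atg4b differed by 0.37 ± 0.32 (limma adjusted p = 0.475), passed with the slide block (adjusted p = 0.0209) and the replicate block (adjusted p = 0.0280), and had a dimmer probe that differed by -0.53 ± 0.40. Atg4a differed by 0.0046 ± 0.25. The brightest probe of Atg12 differed by 0.25 ± 0.13 and did not pass (limma adjusted p = 0.232), whereas its 2 other probes differed by 0.57 and 0.60 and passed when every probe was tested on its own. With the mean of its probes in place of the brightest, Atg12 differed by 0.47 and passed (limma adjusted p = 0.0462).

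Atg8 proteins are ubiquitin-like proteins that sit on both faces of the autophagosome membrane and bind cargo receptors. Gabarapl1, of the GABARAP branch, had relative signals of 69.2, 54.7, 74.8 and 84.0 in satiated hearts and of 186, 140.2, 361 and 224 in fasted hearts. The groups were far apart, with fasted replicate 3 the highest. The change of 1.62 ± 0.28 (3.07-fold, limma adjusted p = 0.00671) was kept without any 1 heart (1.37 to 1.82), and a second probe gave 1.78 ± 0.47.

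Map1lc3b, which encodes LC3B, the protein most used to mark autophagosomes, was at 49.6, 47.4, 44.5 and 43.4 in satiated hearts and at 93.6, 88.3, 138 and 83.1 in fasted hearts. Every fasted heart was well above every satiated heart, and the satiated hearts differed little. Its change was 1.09 ± 0.17 (2.14-fold, limma adjusted p = 0.00428), kept without any 1 heart (0.93 to 1.18), and its second probe gave 1.48 ± 0.17. Map1lc3a, which encodes LC3A, was at 20.4 to 30.1 in satiated and 19.5 to 32.9 in fasted hearts, a difference of 0.0053 ± 0.23 with a 95% interval of -0.52 to 0.53. Gabarap differed by 0.27 ± 0.19 (95% interval -0.16 to 0.70, limma adjusted p = 0.354).

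The 4 cargo receptors rose together, with a median change of 0.90 on the log2 scale. Sqstm1 encodes p62, which binds ubiquitin-tagged protein and is itself degraded by autophagy. It was at 68.0, 55.7, 95.3 and 82.5 in satiated hearts and at 164, 148, 293 and 220.2 in fasted hearts. Both groups were higher on slide 2, and the lowest fasted heart was above the highest satiated heart. The change was 1.43 ± 0.25 (2.69-fold, limma adjusted p = 0.00719), 1.34 on slide 1 and 1.52 on slide 2.

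Calcoco1 encodes a receptor related to NDP52 that acts in turnover of the endoplasmic reticulum. It was at 0.525, 0.610, 0.846 and 0.767 in satiated hearts and at 1.17, 1.12, 1.73 and 1.33 in fasted hearts, again higher on slide 2 in both groups and without overlap. The change was 0.96 ± 0.20 (1.95-fold, limma adjusted p = 0.0135) and was kept without any 1 heart (0.83 to 1.07).

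Optn encodes optineurin, a ubiquitin-binding receptor of mitochondria, bacteria and protein aggregates. Its signals were 3.13, 2.87, 4.63 and 3.95 in satiated hearts and 5.48, 5.01, 8.45 and 7.20 in fasted hearts. The groups did not overlap, but the slide 2 satiated hearts came near the slide 1 fasted hearts. The change of 0.84 ± 0.22 (1.79-fold, limma adjusted p = 0.0309) was lost without fasted replicate 3 or 4 or satiated replicate 1, 2 or 4 (adjusted p = 0.0604 to 0.0835). It was also lost with each array centred on its median (adjusted p = 0.0634), with the deposited value table (0.0639) and with all probes kept (0.0792).

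Nbr1 encodes a relative of p62 with a ubiquitin-binding domain. It was at 15.0, 14.4, 16.8 and 16.9 in satiated hearts and at 20.1, 18.9, 21.9 and 21.0 in fasted hearts, a narrow but complete separation. The change was 0.38 ± 0.11 (1.30-fold, limma adjusted p = 0.0484), and it was lost without any 1 of the 8 hearts (adjusted p = 0.0587 to 0.130). Of 19 alternatives, 15 ended the call, among them normexp (adjusted p = 0.132), each array centred on its median (0.129), the deposited value table (0.130), all probes kept (0.154) and the mean of its own probes (0.0678). Its 2 other probes differed by 0.47 ± 0.15 and 0.53 ± 0.21 and did not pass when each probe was tested on its own.

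Mitophagy, the removal of mitochondria by autophagy, runs either through receptors in the outer mitochondrial membrane, among them Bnip3, Bnip3l (NIX) and Fundc1, or through a pathway started by the kinase Pink1. Bnip3 showed the largest change of all 37 measured members. Its relative signal was 38.9, 28.6, 26.4 and 22.9 in satiated hearts and 154, 149, 250.2 and 126 in fasted hearts. The lowest fasted heart was well above the highest satiated heart, which was satiated replicate 1. The change was 2.52 ± 0.24 (5.73-fold, limma adjusted p = 0.000791) and was kept without any 1 heart (2.32 to 2.66).

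Fundc1, a mitophagy receptor first described in hypoxia, was the single member that fell. It was at 4.90, 5.23, 4.78 and 4.72 in satiated hearts and at 3.53, 3.88, 3.45 and 2.95 in fasted hearts. The satiated hearts were close together and all above the fasted hearts. Its change was -0.51 ± 0.12 (1.43-fold lower, limma adjusted p = 0.0200), and the call was lost without satiated replicate 1, 2 or 4 (adjusted p = 0.0506 to 0.0624) and with all probes kept (0.0727).

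Bnip3l, the close relative of Bnip3, was at 6.31 to 9.59 in satiated and 8.59 to 13.3 in fasted hearts, and the groups overlapped across slides but not within them. Its difference of 0.56 ± 0.21 did not pass (limma adjusted p = 0.0943) and passed with the slide block (adjusted p = 0.00533), the replicate block (adjusted p = 0.0145), median centring (adjusted p = 0.0449) and the deposited value table (adjusted p = 0.0459), while its second probe differed by 0.091 ± 0.10. Pink1 was at 44.3, 44.1, 52.7 and 50.7 in satiated hearts and at 54.9, 51.0, 74.7 and 61.8 in fasted hearts. The slide 1 fasted hearts lay beside the slide 2 satiated hearts, and within each slide the fasted hearts were higher. Its difference of 0.33 ± 0.15 missed the threshold (limma adjusted p = 0.164) and passed with the slide block (adjusted p = 0.0285) and the replicate block (adjusted p = 0.0455).

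Tfeb was dim, at 0.162, 0.156, 0.229 and 0.180 in satiated hearts and 0.167, 0.157, 0.256 and 0.184 in fasted hearts. The values followed the slide and not the group, and the difference of 0.063 ± 0.19 had a 95% interval of -0.38 to 0.50 (limma adjusted p = 0.863). Fasted replicate 3 held the highest signal for 9 of the 10 members that rose, the exception being Pik3c3, against 60.0% of the 1983 features that rose over the whole array. Without fasted replicate 3, 7 members rose and Fundc1 fell.

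**Figure D3:**
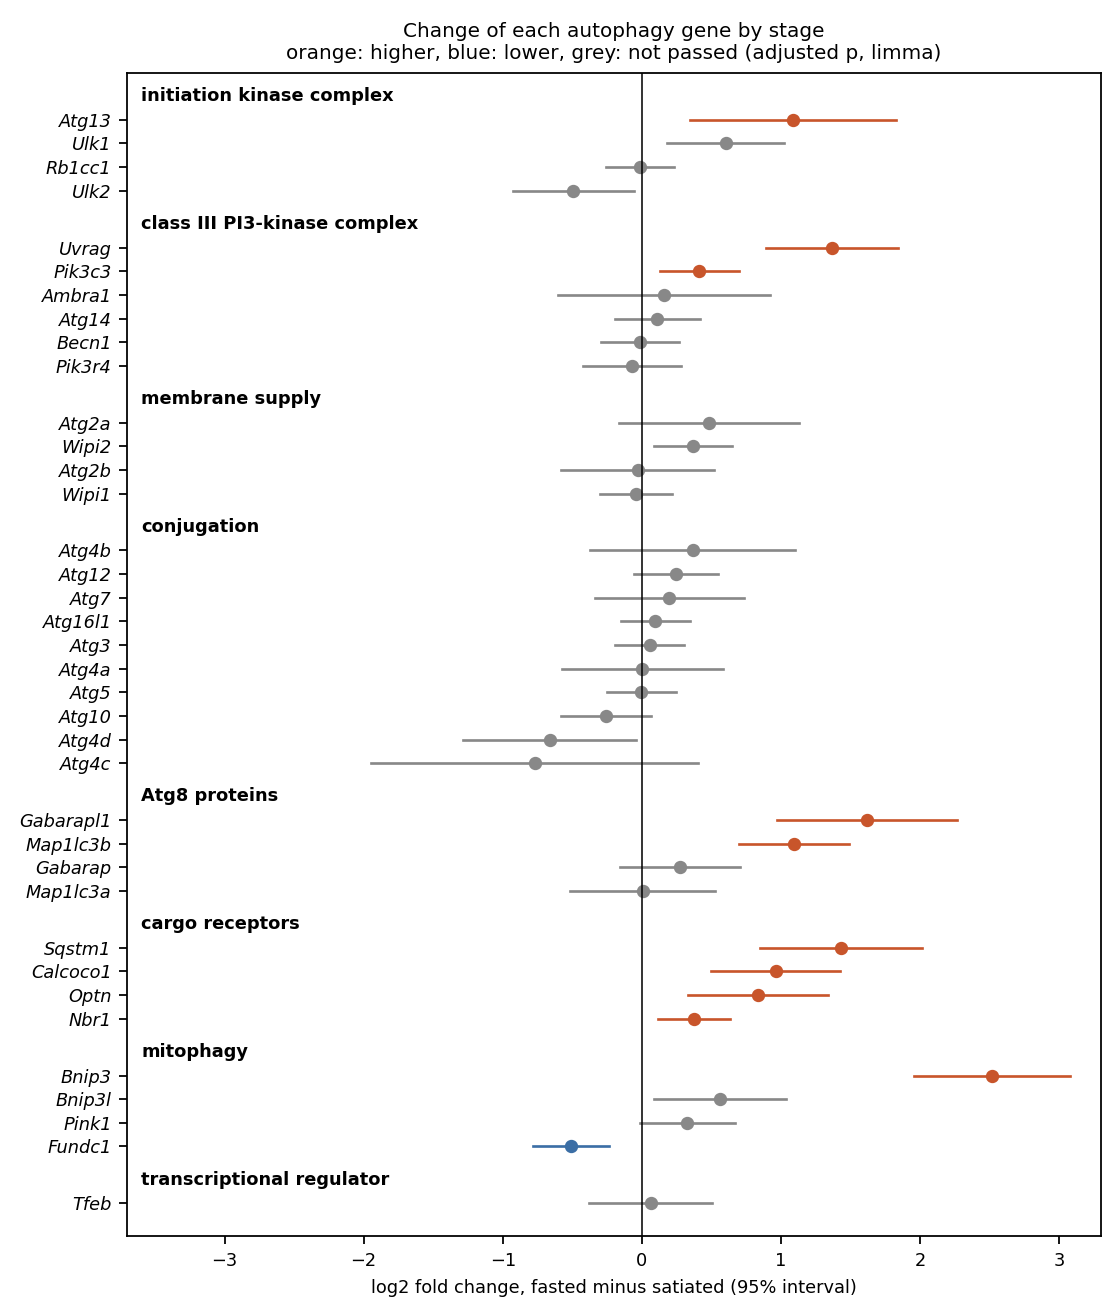
Log2 fold change of each of the 37 measured members, fasted minus satiated, with its 95% interval, ordered by stage of autophagy. Orange marks members that rose, blue the 1 that fell and grey those that did not pass, so that orange points gather among Atg8 proteins and cargo receptors and are missing among the conjugation genes.

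Closely related genes of a pair were set against each other within each array, as the log2 ratio of their signals, which removes the scaling of the array. Of 10 pairs, 8 had both members measured. The exact two-sided permutation test over the 8 hearts cannot give a p below 0.0286. That value was reached by 6 pairs (exact permutation adjusted p = 0.0381 over 8 pairs). It requires groups without overlap, which also fixes the same sign on both slides. The ratio of Bnip3 to Bnip3l rose from 1.90 ± 0.18 to 3.85 ± 0.47 on the log2 scale (SD, n = 4 per group), a shift of 1.96 (exact permutation adjusted p = 0.0381). Gabarap against Gabarapl1 shifted by -1.34 and Map1lc3a against Map1lc3b by -1.09, so that in both Atg8 branches Gabarapl1 and Map1lc3b moved up relative to their partner.

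The ratio of Ulk1 to Ulk2 shifted by 1.10, that of Atg2a to Atg2b by 0.51 and that of Wipi1 to Wipi2 by -0.41. The ratios of satiated and fasted hearts did not overlap in these 3 pairs. Atg4a against Atg4b shifted by -0.36 (exact permutation p = 0.543, a test that does not use the replicate number or the slide). Its ratio was 3.11, 3.47, 1.69 and 2.03 in satiated and 2.93, 3.14, 1.36 and 1.43 in fasted replicates 1 to 4, lower in the fasted heart of each same-numbered pair and on both slides (-0.26 and -0.47), while the slides lay farther apart than the groups. Atg4c against Atg4d shifted by -0.11 (exact permutation p = 1). With the mean of a gene's probes in place of the brightest, no pair stayed below 0.05 in the exact permutation test. The Ulk pair was at adjusted p = 0.0914 and the Atg2 pair at 0.229. The other 4 were at adjusted p = 0.0571, which is what the smallest possible p (0.0286) becomes when 4 of 8 pairs reach it. Those 4 lost their calls because the Ulk and Atg2 pairs left that smallest p. Their own ratios still did not overlap between groups.

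**Figure D4:**
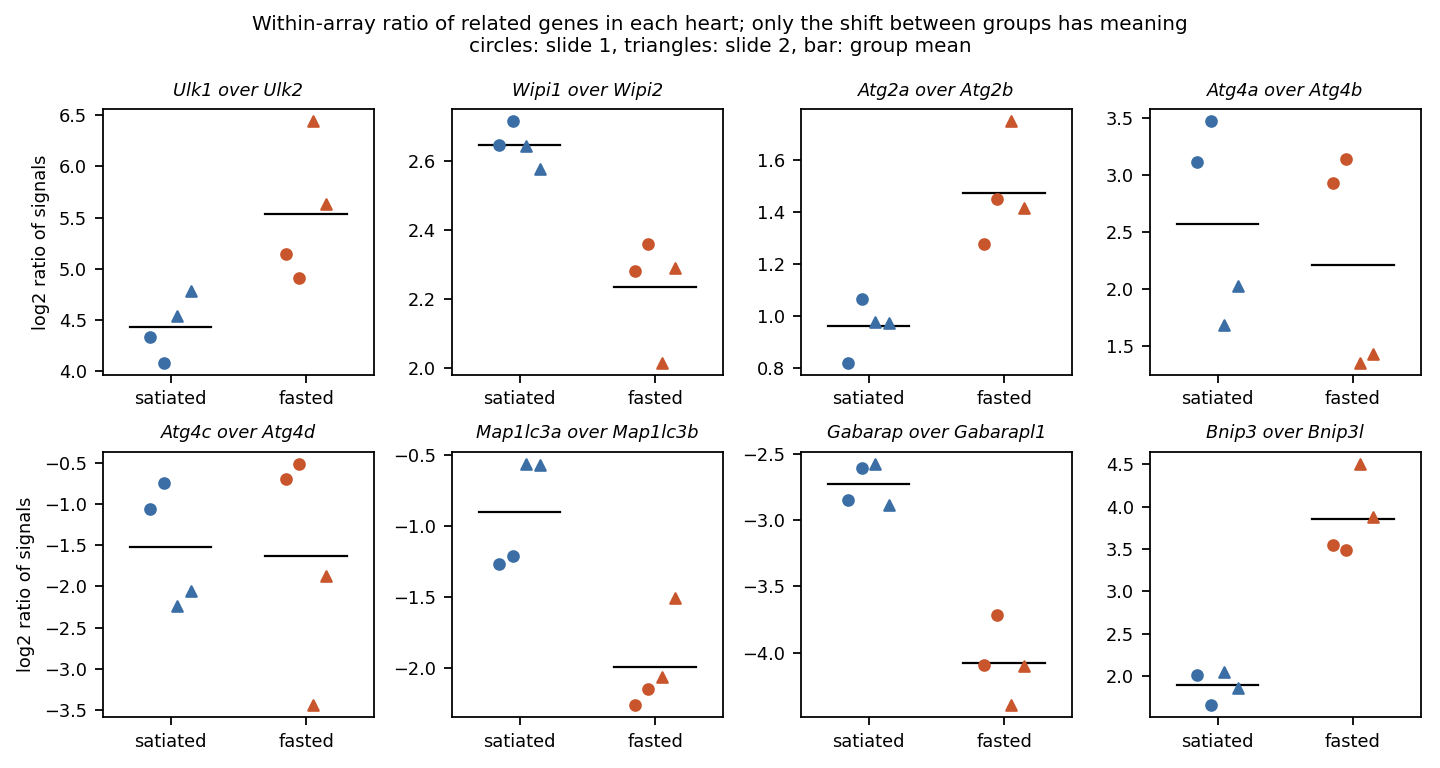
Log2 ratio of the signals of 2 related genes in each heart, for 8 pairs, with circles for slide 1, triangles for slide 2 and a bar at the group mean. Only the shift between groups has meaning, since levels of different probes are not comparable, and the hearts of the groups are apart in 6 panels and overlap for both Atg4 pairs.

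Several members were read by more than 1 probe. The array held 62 probes of the members, 60 of them bright enough to keep, and 17 members had several kept probes. When every kept probe was tested on its own, 19 member probes rose, of 13 members, and 1 fell, against 10.6% of all kept probes that rose. No member had probes called in both directions. The 13 members were the 10 called above and Ulk1, Rb1cc1 and Atg12, and both probes of Ulk1 passed, at 0.60 and 0.62. The brighter Ulk1 probe passed there but not in limma's fit of 1 probe per gene, where its adjusted p was 0.0515.

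**Figure D5:**
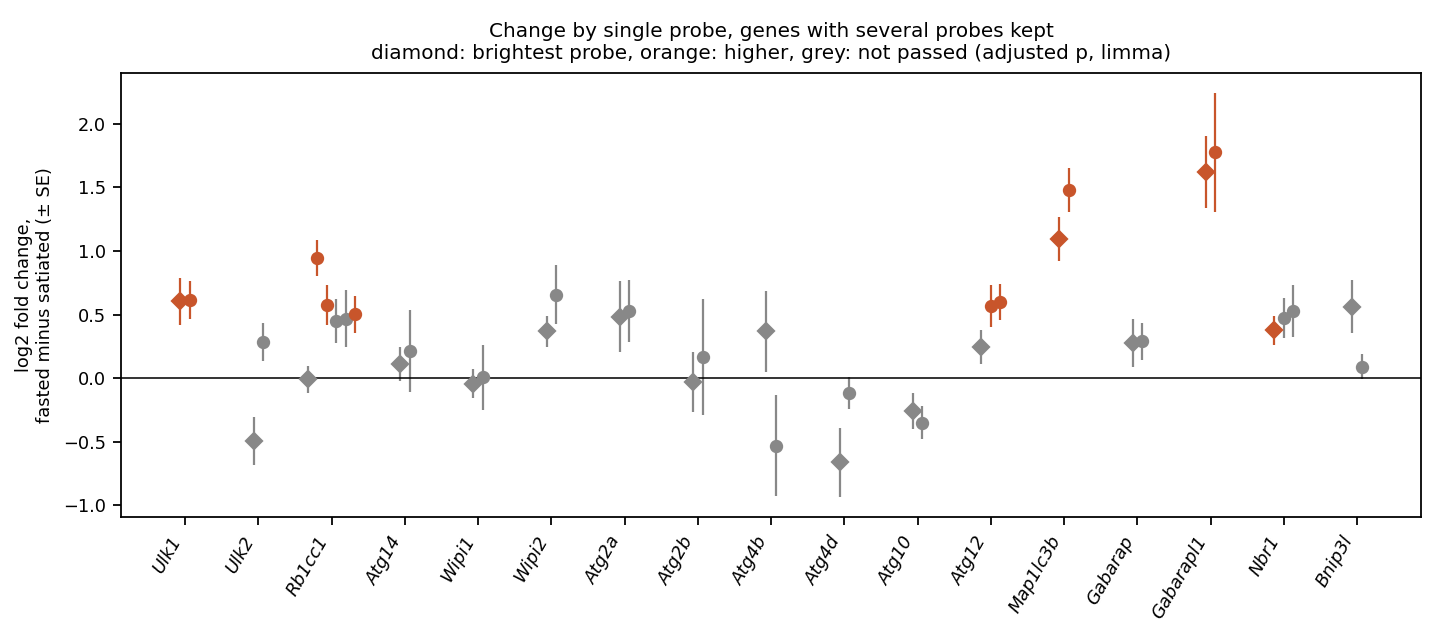
Log2 fold change ± SE of every kept probe of the 17 members with several, fasted minus satiated, with a diamond for the brightest probe, orange for probes that rose and grey for those that did not pass. The 6 probes of Rb1cc1 run from -0.011 to 0.95, and both probes of Gabarapl1 and of Map1lc3b lie above 1.

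A second list held 80 other genes of autophagy, of which 77 were measured. No probe was matched to Epg5 and Rab7, and Atg9b was too dim. Of the 77, 19 rose (24.7%) and 2 fell (2.60%), against 9.82% and 10.3% of all features tested, and their median change was 0.19. With the replicate block 28 rose and 6 fell, against 15.4% and 16.7% of all features tested. With the slide as a block 32 rose and 6 fell, against 17.1% and 18.4%. Without satiated replicate 2, 3 or 4 the number that rose was 11, 12 and 10. Cargo receptors were again the group with the most genes that rose: 8 of 13 measured rose, with a median of 0.45, against none of 8 other initiation and PI3-kinase factors (4 of 8 had an unadjusted p under 0.05 in limma's test), 1 of 7 membrane factors, 2 of 15 factors of fusion with the lysosome, 2 of 13 mitophagy factors and 6 of 21 regulators. The differences between these groups were not tested.

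Retreg1, a receptor that removes sheets of endoplasmic reticulum, was at 11.9, 11.2, 10.6 and 12.3 in satiated hearts and at 57.8, 40.4, 72.0 and 45.0 in fasted hearts. Satiated hearts hardly differed, and every fasted heart was far above them. Its change was 2.19 ± 0.19 (4.57-fold, limma adjusted p = 0.000528). The other receptors that rose, named after their values were seen, were Ccpg1, Tex264 and Sec62, also receptors of the endoplasmic reticulum, and Tax1bp1, Bag3, Nufip1 and Hdac6, at 0.42 to 0.80. Rtn3, another receptor of the endoplasmic reticulum on the list, went the other way, at -0.44 (limma adjusted p = 0.107). It passed as lower with the slide block (limma adjusted p = 0.0161) and the replicate block (limma adjusted p = 0.0368). Hdac6 lost its call without any 1 heart (adjusted p = 0.0598 to 0.127), Sec62 without fasted replicates 1, 2 or 3 or satiated replicates 2, 3 or 4 (adjusted p = 0.0587 to 0.110), Nufip1 without satiated replicates 2, 3 or 4, Tex264 without fasted replicate 1 or satiated replicates 3 or 4, and Bag3 without satiated replicates 2 or 4.

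Wdr45, which encodes WIPI4, a partner of Atg2 proteins, rose by 1.18 ± 0.14 (2.27-fold, limma adjusted p = 0.00165), and was at 4.89 to 6.50 in satiated and 10.4 to 13.6 in fasted hearts. Trp53inp1, an LC3-binding stress protein, rose by 2.50 ± 0.32 (5.65-fold, limma adjusted p = 0.00195), and was at 2.10 to 3.27 in satiated and 10.8 to 30.4 in fasted hearts. Bcl2l1, which encodes BCL-XL, a binder of Becn1, rose by 2.07 ± 0.32 (4.20-fold, limma adjusted p = 0.00412). Both genes that fell were Trp53inp2, a nuclear protein that shuttles to autophagosomes, at -0.91 ± 0.13 (1.87-fold lower, limma adjusted p = 0.00338), and Tmem41b, a lipid scramblase needed for autophagosome formation, at -0.42 ± 0.11 (1.34-fold lower, limma adjusted p = 0.0322). Tmem41b was kept without fasted or satiated replicate 3 and lost without any of the other 6 hearts (adjusted p = 0.0536 to 0.0920).

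Trp53inp1 and Trp53inp2, which encode related proteins, moved in opposite directions, with no overlap between groups for either: Trp53inp2 was at 99.5, 109, 111 and 119.7 in satiated hearts and at 58.5, 59.1, 49.2 and 68.7 in fasted hearts. Among the mitophagy factors of the second list, Usp15, a deubiquitinase, rose by 0.51 ± 0.10 (1.42-fold, limma adjusted p = 0.00959) and was named after its values were seen.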

How the data were processed

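The deposited scanner files give linear spot intensities with each array's background already removed by Agilent Feature Extraction, and no step between arrays, per the file headers. According to the headers, slide 1 was read with version 10.5.1.1 and slide 2 with 10.7.3.1, whereas version 9.1 stands in the submitters' processing notes. A deposited value table of all 8 arrays gives ratios on a linear scale, with column medians of 0.860 to 1.02. Its scale is linear and its direction that of the intensities, whereas its centring was not given in the sources used here, and it served as an alternative.

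Control spots and spots marked as outliers were left out, spots of a probe were averaged, and log2 values were taken relative to each array's 75th percentile. Of 41174 probes, 26480 that were well above background on at least 4 arrays were kept, and accessions were matched to RefSeq's GRCm38.p6 gene table (26690 probes, 64.8%). The brightest kept probe stood for a gene. Groups were compared with limma 3.58.1 in R 4.3.3, two-sided, with Benjamini-Hochberg adjustment and an adjusted p under 0.05, and the script was tested on simulated data. Ratios within pairs were compared with an exact permutation test. The normexp alternative (offset 50) used the median spot signal.

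The members, the gene lists and the tests were chosen with earlier results of these data known. Signals per heart were given for every called member and for Ulk1, Becn1, Map1lc3b, Sqstm1, Pink1 and Tfeb, and of the other autophagy genes the 4 with the smallest p in each direction were named, with exceptions marked in the text. Deviations from the group mean, over all tested features, correlated at 0.33 to 0.49 between satiated and fasted hearts of the same number. They correlated at 0.29 to 0.52 between differently numbered hearts on the same slide and at -0.53 to -0.28 across slides. The same-number range lay within that of other numbers on the same slide, so the values do not show pairing by number. Deviations within a group cancel, so positive values on the same slide imply negative ones across slides. The replicate block stands as an alternative only. The values of 1 gene of the second list are not reported here.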

Additional observations from a re-analysis of the deposited data

Results flagged for a closer look

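Uvrag in fasted replicate 3 stood apart from the other fasted hearts. Its relative signal was 12.0 there and 6.51, 6.78 and 6.63 in fasted replicates 1, 2 and 4, and the gap to the nearest of them was 0.934 of the range of the group, above Dixon's 95% critical value for a group of this size. It was the 1 such case among 74 groups of 4 hearts examined, where chance alone marks about 1 in 20. Without that heart, Uvrag still passed the test, at a log2 change within the range of 1.15 to 1.45 that leaving out single hearts gave.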

How the results depend on the processing

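The number of arrays limits what can be resolved, and background was higher on slide 2, where 1 feature of 20203 passed in limma's test on that slide alone. The part of the background in that count was not tested. Over all results and alternatives, 733 values kept their direction and their side of the threshold (counts stayed within 1.5 times), 65 lost the call, 26 gained one, 43 changed sign and 42 counts moved further, and none of the 11 called members changed sign. Bnip3, Gabarapl1, Sqstm1, Uvrag, Map1lc3b and Calcoco1 kept their calls under every alternative except slide 2 alone. The cause of the other changes was not tested, except that keeping all dim probes raises the number of tests and single slides or left-out hearts lower the number of samples. No leave-one-out permutation test of a pair could pass, since 3 against 4 hearts give no p below 0.0571.

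The number of all features called was 2225 with all probes kept, 7177 with the slide as a block, 6486 with the replicate block, 1883 on slide 1 alone, 1 on slide 2 alone and 2495 to 3690 without single hearts. Members that rose numbered 8 with median centring or the deposited value table, 6 with all probes kept, 16 with either block, 0 on slide 2 alone and 6 to 9 without single hearts. Members that fell numbered 2 with normexp, 0 with all probes kept or on slide 1 or slide 2 alone, 3 with either block and 0 to 1 without single hearts. Of the second list, 11 rose with all probes kept, 32 with the slide as a block, 4 on slide 1, 0 on slide 2 and 10 to 18 without single hearts, and 1 fell with all probes kept, 6 with either block, 1 on slide 1, 0 on slide 2 and 1 to 2 without single hearts. Called pairs numbered 0 with the mean of a gene's probes, where the Bnip3, Gabarap, Map1lc3 and Wipi pairs lost their calls through the adjustment alone.

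The sign reversed for members that had not passed. With the mean of probes Rb1cc1 was at 0.49 (past the threshold), Atg2b at 0.069, Atg4b at -0.082 and the pair Atg4a to Atg4b at 0.086. With normexp Pik3r4 was at 0.0069, Atg4a at -0.015, Map1lc3a at -0.033 and the pair Atg4c to Atg4d at 0.072. With quantile normalization Atg5 was at 0.0091 and Map1lc3a at -0.052. On slide 1 alone Atg14 was at -0.044, Wipi1 at 0.041, Atg2b at 0.046 and Map1lc3a at -0.055, and on slide 2 alone Rb1cc1 at 0.019, Becn1 at 0.081, Atg4a at -0.068 and Atg5 at 0.072. Without single hearts, Rb1cc1 ran from -0.044 to 0.032, Becn1 from -0.072 to 0.056, Pik3r4 from -0.15 to 0.0021, Ambra1 from -0.0056 to 0.35, Atg2b from -0.15 to 0.088, Atg4a from -0.13 to 0.14, Atg5 from -0.047 to 0.040, Map1lc3a from -0.13 to 0.12 and Tfeb from -0.086 to 0.18. Testing every kept probe on its own was chosen after seeing the data.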

Other observations

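Among regulators that act upstream of autophagy, 6 of 21 measured rose (28.6%) and 1 fell (4.76%), against 9.82% and 10.3% of all features tested. Of those that rose, 4 have not been described above. Ddit4 (REDD1) and Sesn1, both inhibitors of mTORC1 signalling, rose by 1.74 ± 0.31 (3.34-fold, limma adjusted p = 0.00741) and 1.23 ± 0.28 (2.34-fold, limma adjusted p = 0.0173). Dapk1, a kinase of Becn1, rose by 0.78 ± 0.21 (1.72-fold, limma adjusted p = 0.0315) and Flcn, folliculin, a regulator of mTORC1 at the lysosome, by 0.54 ± 0.16 (1.46-fold, limma adjusted p = 0.0478). Ddit4 passed without any 1 heart, Sesn1 lost its call without satiated replicate 2 or 4 (adjusted p = 0.0501 to 0.0508), and Dapk1 without any heart but 2 (adjusted p = 0.0546 to 0.0775) and Flcn without any heart but fasted replicate 2 (adjusted p = 0.0631 to 0.122). Of the factors for fusion with the lysosome, Vps11, a subunit of the tethering complexes CORVET and HOPS, rose by 0.68 ± 0.14 (1.61-fold, limma adjusted p = 0.0140) and Plekhm1, an adaptor between late endosomes and Atg8 proteins, by 0.46 ± 0.12 (1.38-fold, limma adjusted p = 0.0322), the latter lost without all but 2 of the hearts in turn (adjusted p = 0.0580 to 0.0930). The genes of this paragraph were chosen after their values were seen.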
